A study of Homo sapiens with 6 samples.

Results

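Hyaluronan is a long, unsulfated glycosaminoglycan of the pericellular matrix, and the genes described here make it, break it down or bind it. The set holds 10 genes: the synthases HAS1, HAS2 and HAS3, the breakdown genes CEMIP, CEMIP2, HYAL1, HYAL2 and HYAL3, and the receptors CD44 and HMMR. Its members were taken by name, as probe sets whose single gene symbol in the platform annotation is one of these. The family itself was chosen from the readings of HAS2 and CEMIP, which were already known to be far lower in the arrays labelled GATA3. Those 2 genes are therefore described without a test. Of the 10 genes, 8 had such a probe set, among 19775 genes with one on the array, and together they had 24 probe sets. HAS1 and HYAL1 had none and have no values here.

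The cells were MDA-MB-231, a long-established line of human breast cancer with basal and mesenchymal-like features, and expression was read on 6 single-colour arrays. All cells had been transduced with a lentivirus and sorted for green fluorescence. The GFP control (3 arrays) carried eGFP alone, and the arrays labelled GATA3 (3 arrays) came from cells given GATA3 together with eGFP. The promoter driving the transgene is not given in the sources used here, and each group is 1 transduced and sorted population as far as the labels say. The title of the series speaks of a shift from a basal to a luminal state and of lysyl oxidase. The labels do not say that the 3 arrays of a group came from separate cultures, so the p-values take in only array-to-array spread, which could be purely technical. In a bulk sample, fewer cells of a type and less RNA per cell cannot be told apart.

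The synthases are membrane enzymes that join UDP-glucuronic acid and UDP-N-acetylglucosamine and push the growing chain out of the cell. Outside, CEMIP and CEMIP2 take part in cutting long chains, and the hyaluronidases HYAL1 and HYAL2 cut them further, HYAL1 in the lysosome and HYAL2 at the cell surface. CD44 is the main surface receptor for hyaluronan and is abundant on mesenchymal-like breast cancer cells. HMMR, first described as a hyaluronan receptor, also works at the mitotic spindle and is known as a gene of dividing cells.

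Levels are given as GCRMA values, taken to be on a log2 scale, and a difference of 1 is a doubling. GATA3, the gene named on the label, was lower in the arrays that carry its name. Its brightest probe set (209604_s_at) read 9.37, 9.35 and 9.45 in GFP control replicates 1, 2 and 3 and 7.93, 7.94 and 7.32 in the arrays labelled GATA3. The groups did not overlap. Which transcript, introduced or endogenous, these probes read was not tested, and each direction below rests on the labels. The markers fixed for the line were present: VIM, AXL, EGFR, CAV1, CD44 and MSN all lay over 4, taken as the detection level, in at least 3 arrays, and PGR and FOXA1 sat at the floor of 2.16. ESR1 sat at a repeated 4.01 on all but GATA3 replicate 3, where it read 4.45, so every array lay just over that level. TFF1 lay under it on every array, at 3.58 to 3.74 in the GFP control and 3.20 to 3.54 in the arrays labelled GATA3. None of 4 leukocyte and 4 endothelial markers with a probe set passed that level, and 2 of 5 fibroblast markers did, COL1A1 and PDGFRB. The summed level of the fibroblast markers was 7.59 to 7.65 in the GFP control and 7.58 to 7.83 in the arrays labelled GATA3. That of the leukocyte markers was 4.18 on each GFP control array and 4.18 to 4.25 in the arrays labelled GATA3, and that of the endothelial markers was 4.17 to 4.18 in the GFP control and 4.17 on each array labelled GATA3. GATA3 replicate 3 stood somewhat apart. Its upper quartile was 7.78 against 7.97 to 8.05 on the 5 other arrays, and the name of its raw file alone carries a later date. For each member call the value without it is given, and for genes outside the set the calls lost without it are stated.

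Promoter letters are shown for 3 members that differ in what they did: CEMIP, which was lower, HYAL2, which did not pass the test, and HMMR, which fell. Each is the 250 bases before the RefSeq start of the gene (GRCh38.p14), with capitals for matches to any of 5 motifs searched on both strands. The motifs were the GATA factor site (AGATAA, or with T as its first base, G as its last, or both), the AP-1 site (TGANTCA), the cell cycle homology region known from promoters of mitotic genes (TTTGAA), the ZEB-type E-box (CACCTG) and the TATA box (TATAAA). No 2 matches in these windows overlap.
CEMIP, chr15:80779120-80779369, plus strand: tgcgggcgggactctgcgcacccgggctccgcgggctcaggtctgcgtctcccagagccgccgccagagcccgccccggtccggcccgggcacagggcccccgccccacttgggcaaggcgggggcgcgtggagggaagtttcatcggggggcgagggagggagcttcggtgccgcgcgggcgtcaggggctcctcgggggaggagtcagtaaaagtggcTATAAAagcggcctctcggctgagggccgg
HYAL2, chr3:50322746-50322995, minus strand: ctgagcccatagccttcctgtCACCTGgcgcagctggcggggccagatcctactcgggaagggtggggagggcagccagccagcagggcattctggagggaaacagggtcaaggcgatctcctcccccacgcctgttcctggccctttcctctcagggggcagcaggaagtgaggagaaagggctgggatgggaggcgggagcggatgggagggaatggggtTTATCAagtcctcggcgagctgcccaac
HMMR, chr5:163460382-163460631, plus strand: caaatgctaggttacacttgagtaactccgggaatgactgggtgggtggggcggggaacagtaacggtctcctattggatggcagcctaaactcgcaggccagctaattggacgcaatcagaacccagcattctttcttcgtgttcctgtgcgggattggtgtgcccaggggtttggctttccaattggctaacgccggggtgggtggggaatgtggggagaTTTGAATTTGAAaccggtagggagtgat

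The CEMIP window is 74.4% G and C and holds 1 match, a TATA box that begins 30 bases before the start. A TATAAA match on either strand is found in 10.7% of all 35116 promoter windows of that length. The HYAL2 window holds the only GATA match among the 9 members with a window, TTATCA on the strand shown, beginning 28 bases before the start, and an E-box farther out. GATA matches are found in 22.3% of all windows and E-boxes in 17.5%. The HMMR window holds 2 adjacent TTTGAA matches, beginning 28 and 22 bases before the start, and 13.3% of all windows hold at least 1. Of the windows not shown, that of HAS1 holds 1 match to this motif (TTCAAA), and a window of HYAL3 holds an E-box. The windows of HAS3, CEMIP2, HYAL1 and CD44 hold no match to any of the motifs. None of the members' windows held an AP-1 match, against 6.57% of all windows. These are matches of letters and not sites of binding. HAS2 has no window here.

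HAS2, the synthase best known from mesenchymal and wound-edge cells, went from a clear signal to below detection. On probe set 206432_at it read 7.13, 6.88 and 7.53 in GFP control replicates 1, 2 and 3, and 2.53, 2.16 and 2.65 in the arrays labelled GATA3. All GFP control arrays were high, all arrays labelled GATA3 lay near or at the floor, and the groups were far apart. The group means were 7.18 ± 0.33 and 2.45 ± 0.25 (SD, n = 3), and against the detection level HAS2 was at least 9.06-fold lower.

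The second HAS2 probe set, 230372_at, showed the same pattern. It read 6.04, 6.47 and 6.62 in the GFP control and 2.90, 3.27 and 3.44 in the arrays labelled GATA3, or 6.38 ± 0.30 and 3.20 ± 0.28 (SD, n = 3). Again no array of either group reached the other, and the bound was at least 5.20-fold lower. The bounds would be 4.53-fold and 2.60-fold if a value of 5 were taken as the detection level.

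HAS3, a synthase of epithelial cells, was under the detection level on all 6 arrays by both of its probe sets. On 1552980_at it read 3.75 on 5 arrays and 3.90 on GATA3 replicate 3, a repeated value that carries no order. On 223541_at it read 3.08, 2.68 and 2.56 in the GFP control and 3.13, 3.76 and 3.64 in the arrays labelled GATA3. The second probe set was thus slightly brighter on each array labelled GATA3, but on both sides under the level at which a fold is given. A further probe set, which the annotation gives to HAS3 and another gene together, was not counted. No synthase was therefore detected in the arrays labelled GATA3 by the probe sets counted here. The shared HAS3 probe set was not examined, and HAS1 was not measured.

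CEMIP, which encodes a secreted and membrane-bound protein needed for the depolymerisation of hyaluronan by many cells, also went from a clear signal to below detection. On probe set 212942_s_at it read 8.32, 8.57 and 8.60 in the GFP control and 2.61, 2.62 and 2.61 in the arrays labelled GATA3. The 3 arrays labelled GATA3 were almost identical, near the floor, and all GFP control arrays were bright. The means were 8.50 ± 0.15 and 2.62 ± 0.005 (SD, n = 3), at least 22.6-fold lower, or 11.3-fold with 5 as the detection level. The other CEMIP probe set, 1554685_a_at, lay under detection on all arrays, at 2.55 to 2.87 in the GFP control and 2.36 to 2.42 in the arrays labelled GATA3.

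CEMIP2, the transmembrane relative of CEMIP with a reported hyaluronidase activity, did not pass the test. It read 7.66, 7.58 and 7.63 in the GFP control and 7.63, 7.73 and 7.56 in the arrays labelled GATA3 (218113_at), and the groups overlapped. The log2 difference was 0.01 with a 95% interval of -0.18 to 0.20 and a limma adjusted p of 0.913. That interval takes in only array-to-array spread, and CEMIP2 was not tested against CEMIP.

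HYAL2, a hyaluronidase anchored at the cell surface, did not pass either. It read 8.96, 9.02 and 8.99 in the GFP control and 9.05, 8.97 and 9.02 in the arrays labelled GATA3 (206855_s_at). The difference was 0.02 with a 95% interval of -0.11 to 0.16 and a limma adjusted p of 0.791. HYAL2 lies next to HYAL1, and HYAL3 is separated from HYAL1 by only NAA80 among protein-coding genes. HYAL3 read the same 2.39 on each of the 6 arrays (211728_s_at), a value under detection that holds no information on a difference.

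**Figure D1:**
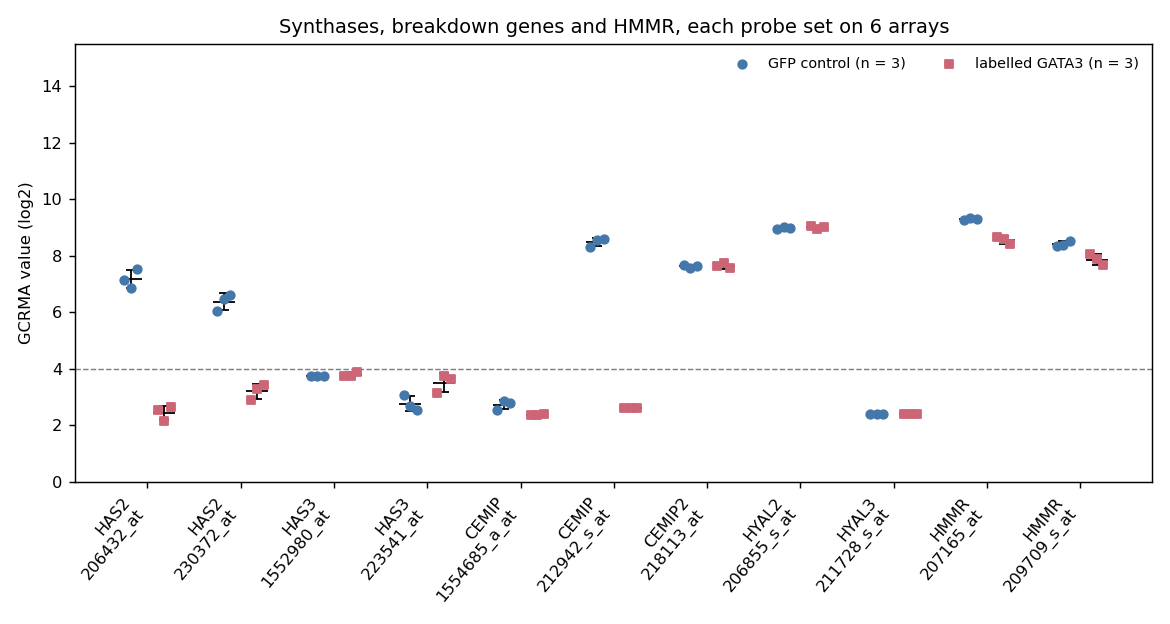
GCRMA values (log2, vertical axis) of each probe set of HAS2, HAS3, CEMIP, CEMIP2, HYAL2, HYAL3 and HMMR on the 3 GFP control arrays (circles) and the 3 arrays labelled GATA3 (squares), with black bars for the mean ± SD and a dashed line at the detection level of 4. HAS2 and the bright CEMIP probe set lie over the line in the GFP control and under it in the arrays labelled GATA3, and CEMIP2 and HYAL2 overlap.

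CD44 stayed bright in both groups. Of its 13 probe sets, 12 were tested and 1 (234418_x_at) lay at or within 0.01 of the floor. On the brightest, 212063_at, CD44 read 13.60, 13.74 and 13.74 in the GFP control and 13.53, 13.63 and 13.70 in the arrays labelled GATA3. The groups overlapped, and the log2 difference was -0.07 (95% interval -0.22 to 0.08, limma adjusted p 0.410).

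The other bright probe sets of CD44 gave a like reading. Among the 7 with a group mean over 12, single values ran from 11.92 to 13.74, log2 differences from -0.07 to 0.19, and none passed the threshold. The widest of their differences was on 212014_x_at, 0.19 with a 95% interval of -0.10 to 0.48, and 0.08 without GATA3 replicate 3. On 217523_at and 229221_at CD44 read 10.08 to 10.58 and 8.57 to 8.87 over all arrays, with differences of -0.10 and 0.08, and on 234411_x_at the difference was 0.27 (limma adjusted p 0.203). The dimmest probe sets tested read differently.

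On 1565868_at CD44 read 6.20, 6.87 and 6.93 in the GFP control and 5.55, 5.07 and 4.04 in the arrays labelled GATA3. All arrays labelled GATA3 were lower than all GFP control arrays, with GATA3 replicate 3 the lowest. This probe set fell by 1.78 on the log2 scale (SE 0.43), 3.43-fold lower, with a limma adjusted p of 0.0324. Without GATA3 replicate 3 the change was -1.36 (adjusted p 0.0306). The call was lost without GFP control replicate 1, 2 or 3 or GATA3 replicate 2 (adjusted p 0.0569, 0.112, 0.114 and 0.0797), with the replicate number as a block (0.0917) and without a filter on low values (0.135).

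A second dim probe set, 216056_at, read 5.32, 6.0 and 5.67 in the GFP control and 4.86, 5.06 and 3.91 in the arrays labelled GATA3. These groups did not overlap either, but the difference of -1.05 (95% interval -1.91 to -0.20) had a limma adjusted p of 0.0786 and did not pass. Without GATA3 replicate 3, again the lowest array, it was -0.70 (adjusted p 0.0775). It passed after quantile normalization (-1.03, adjusted p 0.0427) and with array weights (-0.67, adjusted p 0.0231). CD44 thus has 12 tested probe sets of which 1 fell, 0 rose and 11 did not pass, and the 2 that were lowest relative to the GFP control are the dimmest tested. Which part of the CD44 transcript each probe set reads was not examined, since probe positions were not used here.

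**Figure D2:**
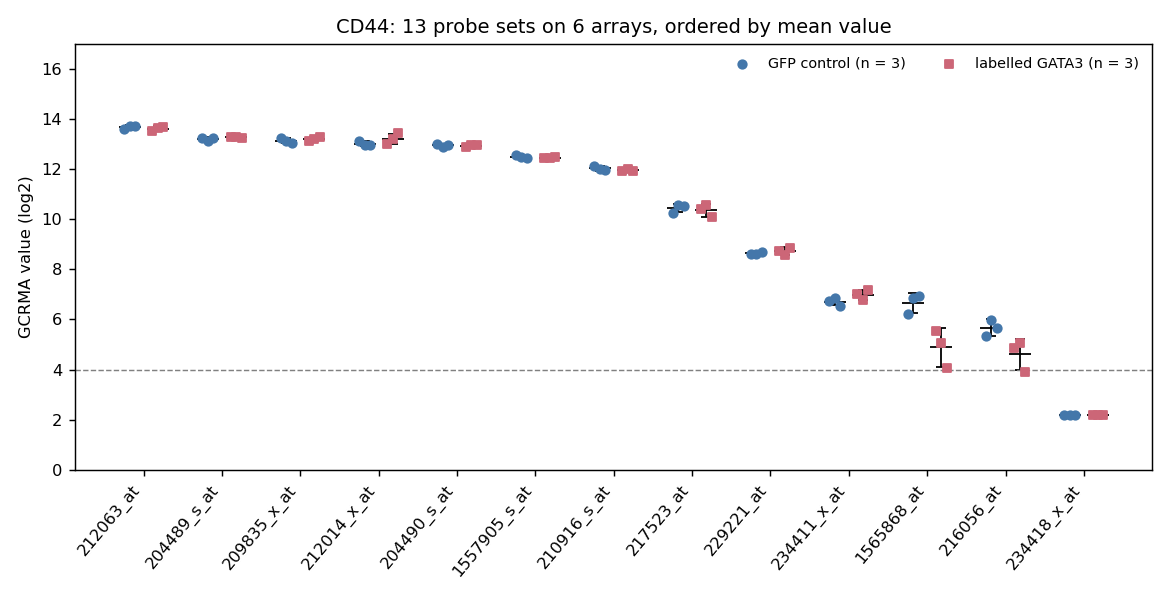
GCRMA values (log2, vertical axis) of the 13 CD44 probe sets on 3 GFP control arrays (circles) and 3 arrays labelled GATA3 (squares), ordered from the brightest to the dimmest, with black bars for the mean ± SD and a dashed line at the detection level of 4. The bright probe sets overlap between groups, and 1565868_at and 216056_at lie lower in the arrays labelled GATA3.

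HMMR fell by both of its probe sets, by less than a factor of 2. On 207165_at it read 9.27, 9.34 and 9.30 in the GFP control and 8.68, 8.60 and 8.40 in the arrays labelled GATA3. The GFP control arrays lay close together and above all arrays labelled GATA3. It fell by 0.74 on the log2 scale (SE 0.09; limma adjusted p 0.00281), to a level 1.68-fold lower. Without GATA3 replicate 3, the lowest array, the change was -0.67 (adjusted p 0.00194).

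The other HMMR probe set, 209709_s_at, read 8.35, 8.37 and 8.53 in the GFP control and 8.06, 7.88 and 7.67 in the arrays labelled GATA3. It fell by 0.55 on the log2 scale (SE 0.12), with a limma adjusted p of 0.0238, and the groups did not overlap. The change was -0.45 without GATA3 replicate 3 (adjusted p 0.0251). The call was lost without GFP control replicate 1, 2 or 3 or GATA3 replicate 2 (adjusted p 0.0647, 0.0738, 0.0881 and 0.0726), with the replicate number as a block (0.0854) and without a filter on low values (0.0802). The call of 207165_at was kept in these fits.

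Over the set, 19 of 24 probe sets were tested, from 6 of the 10 genes, and 5 were too dim. Of the 19, 3 belong to HAS2 and CEMIP, which led to the choice of the family and entered the test only through the GFP control, and these are not counted as calls. Of the 16 probe sets of CEMIP2, HYAL2, CD44 and HMMR, 0 rose, 3 fell at an adjusted p under 0.05 and 13 did not pass. The 3 are CD44 1565868_at and both of HMMR. Over all probe sets tested, 11.3% were higher and 14.0% lower. As the family was chosen from the same comparison, nothing is read from that count. The median log2 change of the 16 was -0.03, and that of all tested probe sets -0.05.

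**Figure D3:**
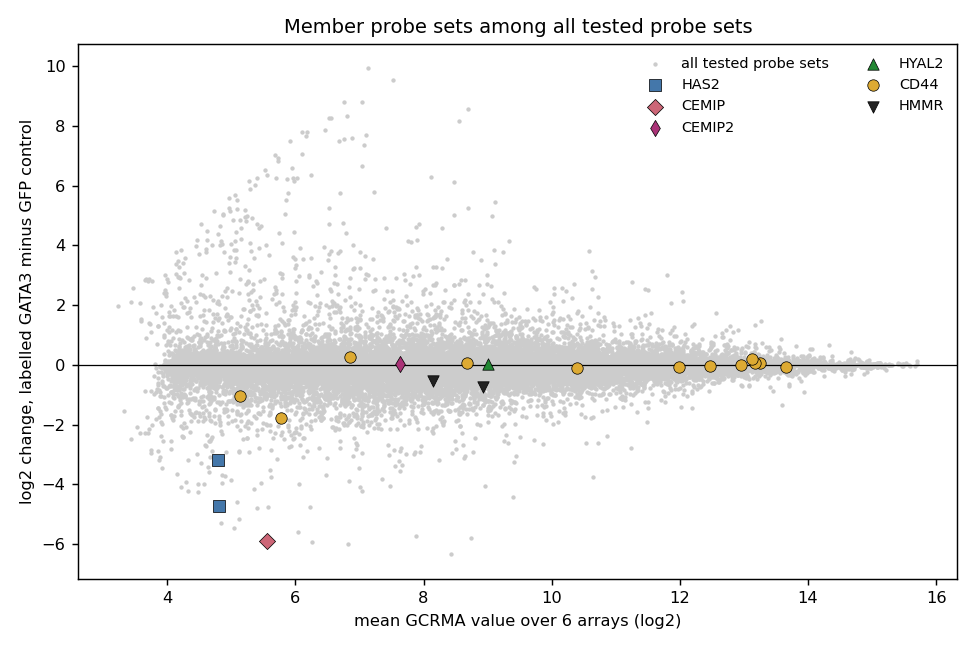
Log2 change (arrays labelled GATA3 minus GFP control, vertical axis) against the mean GCRMA value over the 6 arrays (log2, horizontal axis) for all 23785 tested probe sets (grey) and the 19 of the hyaluronan genes (coloured marks, 1 shape per gene). HAS2 and CEMIP lie low, with differences taken to values under detection, and most CD44 marks lie close to 0.

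The profiles most like those of CEMIP, HAS2 and HMMR, the 3 members with the largest change by their brightest tested probe set, were searched among all genes. Likeness was the mean absolute log2 difference per array, over 6 arrays, between profiles centred on their own mean. For CEMIP the 5 nearest were CELF2, PXDN, PCLO, GJA1 and LOX, at 0.18 to 0.31. For HAS2 they were TMEM71, SATB1, DUXAP10, IGDCC4 and ZNF804A, at 0.20 to 0.26. For HMMR they were IFIT2, JADE1, RGMB, MSANTD2 and PDE8A, at 0.03 to 0.04. With 2 groups of 3 arrays such profiles differ mainly in the size of 1 step. All those near HAS2, and all those near CEMIP but LOX, had a mean under the detection level in the arrays labelled GATA3. Their steps, like those of HAS2 and CEMIP, thus run to values under detection.

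Genes around the set were taken from 6 lists, each gene by its brightest tested probe set. Over all 10814 genes so tested, 14.8% rose and 14.5% fell, with a median log2 change of -0.02. The lists held 67 genes, 63 had a probe set and 40 were tested, of which 5 rose, 5 fell and 30 did not pass. The members of a list that were dim in both groups could not be tested.

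Of the 7 tested genes that make the UDP-sugar substrates, 2 fell, 0 rose and 5 did not pass, with a median of -0.10. UGDH, which oxidises UDP-glucose to UDP-glucuronic acid, read 9.31, 9.21 and 9.43 in the GFP control and 8.89, 8.75 and 8.80 in the arrays labelled GATA3. It fell by 0.51 on the log2 scale (SE 0.08, limma adjusted p 0.00802). UAP1, which makes UDP-N-acetylglucosamine, fell from 12.86 ± 0.02 to 12.38 ± 0.05 (SD, n = 3), a change of -0.48 (limma adjusted p 0.000598). UGDH and UAP1 each lie at the last step to 1 of the 2 substrates. UGP2, which makes UDP-glucose, was higher by 0.12 and did not pass (limma adjusted p 0.0970). GFPT1, an entry enzyme of the hexosamine pathway, did not pass by any of its 4 tested probe sets, with differences from -0.42 to 0.09. GFPT2 and PGM3, also on this list, had no probe set of their single symbol and have no values here. After cyclic loess, with array weights or without GATA3 replicate 3, 2 genes of this list were higher beside the 2 lower, and after quantile normalization 1 was.

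Among other enzymes of breakdown, GUSB and HEXA, exoglycosidases of the lysosome, read 11.4 and 10.2 in each group on their brightest probe sets. The log2 differences were -0.004 and -0.005 (limma adjusted p 0.952 and 0.968). The sperm hyaluronidase SPAM1 and HYAL4 were under detection in both groups.

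Of 19 genes for proteins that bind hyaluronan or hold it in the matrix, all with a probe set, 3 were tested, of which 2 rose, 0 fell and 1 did not pass. VCAN, TNFAIP6, HAPLN1 and the inter-alpha-trypsin inhibitor genes ITIH1 to ITIH5 were among the 16 too dim to test. PTX3, a pentraxin that helps to cross-link hyaluronan in inflamed tissue and around the oocyte, rose from 12.19 ± 0.07 to 13.11 ± 0.10 (SD, n = 3), 1.90-fold (limma adjusted p 0.000475). HABP4, named for hyaluronan binding but known as an intracellular RNA-binding protein, rose by 0.50 on 233919_s_at (adjusted p 0.0326) and did not pass on its 2 other tested probe sets. The HABP4 call was lost without any 1 of GFP control replicates 1, 2 and 3 and GATA3 replicates 1 and 3, and without a filter on low values (adjusted p 0.0641 to 0.106). C1QBP had a difference of 0.11 on its brightest probe set (limma adjusted p 0.216) and did not pass. On its other probe set, 214214_s_at, it was higher by 0.20 (adjusted p 0.0133). That call was lost without GFP control replicate 1 or 2 and with the replicate number as a block (adjusted p 0.0504 to 0.0521).

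Of the other receptors, 3 of 6 were tested, 1 rose and 2 did not pass. LAYN, the hyaluronan receptor layilin, read 10.72 ± 0.05 and 10.88 ± 0.05 (SD, n = 3), a difference of 0.16 (limma adjusted p 0.0654). TLR4, a receptor reported to respond to hyaluronan fragments, rose by 0.91 on 224341_x_at (adjusted p 0.0333), and by 1.15 without GATA3 replicate 3, the lowest of its group (adjusted p 0.00248). Its 2 other tested probe sets did not pass. That call was lost without any 1 of GFP control replicates 1, 2 and 3 and GATA3 replicates 1 and 2, with the replicate number as a block, and without a filter on low values (adjusted p 0.0715 to 0.128). LYVE1, STAB1 and STAB2, receptors of lymphatic and sinusoidal endothelium, were under detection.

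Among partners, splicing factors and sheddases of CD44, 11 were tested, of which 2 rose, 2 fell and 7 did not pass. ANK3, an ankyrin that links membrane proteins to the spectrin skeleton, read 4.69, 4.88 and 4.83 in the GFP control and 8.81, 8.62 and 8.20 in the arrays labelled GATA3. It rose 13.4-fold on 206385_s_at (limma adjusted p 0.000101), or at least 11.7-fold with 5 as the detection level. On its other tested probe set, 209442_x_at, the log2 difference was 0.94 (adjusted p 0.108). GATA3 replicate 3 was the lowest of its group on both. Without it the log2 differences were 3.92 (adjusted p 0.000133) and 1.34 (adjusted p 0.00153), so that both passed. The ANK3 probe sets not tested sat at the floor on all arrays. SRGN, the proteoglycan serglycin that can bind CD44, rose 3.32-fold on its brightest probe set, from 11.69 ± 0.14 to 13.42 ± 0.08 (SD, n = 3). On its other tested probe set, 201858_s_at, it rose 6.87-fold, and 1554676_at was under detection on all arrays.

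MMP14, a membrane metalloproteinase that can cleave CD44, read 9.00, 9.54 and 8.96 in the GFP control and 7.48, 8.07 and 7.31 in the arrays labelled GATA3. It fell 2.92-fold (limma adjusted p 0.00966), and all 4 of its probe sets fell, with changes from -1.54 to -0.89 on the log2 scale. The call of 160020_at was lost in 4 fits, among them those without GFP control replicate 3 or GATA3 replicate 1 or 3, and that of 217279_x_at in 5, among them those without GFP control replicate 1, 2 or 3 or GATA3 replicate 1 (adjusted p 0.0503 to 0.101). MSN, the cytoskeletal linker moesin, fell by 0.24 (adjusted p 0.0342), a call lost without any 1 of GFP control replicates 1 and 2 and GATA3 replicates 1, 2 and 3, and with the replicate number as a block, after cyclic loess, without an intensity trend and without a filter on low values (adjusted p 0.0518 to 0.126). EZR, RDX and the sheddases ADAM10 and ADAM17 did not pass. ESRP1, a splicing factor that favours the variant exons of CD44, was under detection in both groups.

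Of 14 partners of HMMR and other genes of mitosis, all tested, 1 fell, 0 rose and 13 did not pass, with a median log2 change of -0.09. KIF11, a spindle motor, fell from 11.78 ± 0.04 to 11.42 ± 0.02 (SD, n = 3), a change of -0.36 (limma adjusted p 0.00208). TPX2, which brings AURKA to the spindle, had a difference of -0.11 (adjusted p 0.0833), AURKA -0.06, CCNB1 0.05, MKI67 -0.19 and TOP2A -0.15 on their brightest probe sets, and none of these passed. Dimmer probe sets went both ways. CDK1 was higher by 0.34 and 0.38 on 2 of them, and BARD1 and NUMA1 changed by -0.43 and -0.77 on 1 each, all past the threshold. The BARD1 call was lost without any 1 of the 6 arrays (adjusted p 0.0624 to 0.108), and the NUMA1 call without GFP control replicate 1, 2 or 3 (0.0699 to 0.0828). With the mean of all tested probe sets of a gene, 1 gene of the list was higher and 3 lower, and with array weights 1 was higher and 5 lower.

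**Figure D4:**
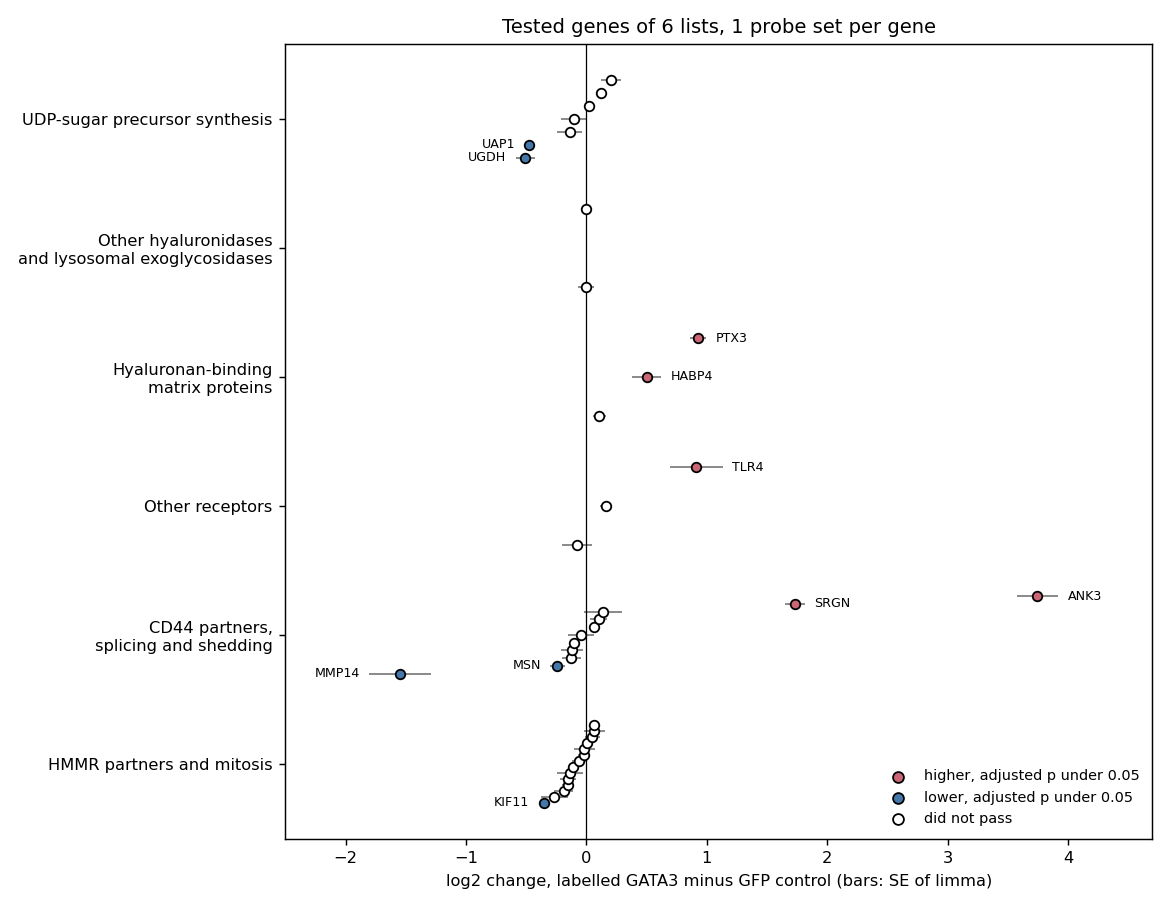
Log2 change (arrays labelled GATA3 minus GFP control, horizontal axis) of the 40 tested genes of 6 lists (vertical axis), 1 probe set per gene, with bars for the SE. Filled points passed the limma threshold and are named, with 5 higher and 5 lower, and open points did not pass.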

How the data were processed

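Total RNA of the 6 samples was reverse transcribed, labelled with biotin and hybridised, per the labels' protocols, to Affymetrix arrays holding 54675 probe sets. The authors deposited values on a log2 scale. Per the submitters' processing notes these came from GCRMA, whose version is not given in the sources used here. GCRMA estimates background from probe sequence and leaves dim probe sets at a shared floor (2.16 here, 18325 to 18892 probe sets per array). The log2 scale is read from the range of the values, since no header or label states it. GCRMA can also give a repeated value of a probe set's own, such as the 3.75 of HAS3.

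Values were used as deposited. The 62 control probe sets were left out, and testing needed a value over 4 in at least 3 of 6 arrays (23785 tested, 30828 not). A member that is dim in 1 group thus passed only where the other group was bright. Groups were compared with limma (version 3.58.1, R 4.3.3; lmFit, eBayes with an intensity trend, no covariates), with Benjamini-Hochberg adjustment over all tested probe sets at 0.05. Where all arrays of a group lay at or under 4, the fold is a lower bound, computed from the brighter group's mean and 4. Symbols came from the platform annotation, with 41091 probe sets of 1 symbol, 1801 of several and 11721 of none. Promoter windows are from RefSeq. Same-numbered arrays did not deviate together in all pairs (correlations of deviations -0.13, 0.16 and -0.11), so the replicate block is an alternative. The fit was tested on 1 simulated data set with known changes, in far fewer probe sets than were called here. It missed many of the smaller changes, and the share of false calls lay above the threshold in that draw. A single draw with so few changes does not give either share for these data. The number of arrays limits the precision.

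The members, lists and tests were chosen with earlier results of these data known. Named were GATA3, all members, up to 4 genes past the threshold of each list (where none passed, the brightest), and the nearest profiles; other genes are named to show what was dim or did not pass, after their values were seen. Alternatives were other normalizations, filters and weights, no trend, the block, and leaving out each array.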

Additional observations from a re-analysis of the deposited data

How the results depend on the processing

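The calls of HMMR by 207165_at and of UGDH, UAP1, PTX3, ANK3, SRGN, MMP14 and KIF11 by their brightest probe sets were kept in all 13 fits run with other normalization, filter, trend, block, weights or with 1 array left out. For 207165_at the change ran from -0.80 to -0.67 and the limma adjusted p from 7.27e-05 to 0.0220. For MMP14 the highest adjusted p was 0.04996, without a filter on low values. The calls of CD44 1565868_at and HMMR 209709_s_at were both lost without a filter, with the replicate block, and without GFP control replicate 1, 2 or 3 or GATA3 replicate 2. CD44 216056_at passed after quantile normalization or with array weights. No member probe set rose in any fit. Over all probe sets, 2698 were higher and 3329 lower. The lower count was 1767 without a filter and 2106 with the replicate block. Array weights, whose estimate did not converge, gave 5195 higher and 6642 lower. With 1 array left out, higher counts ran from 1796 to 3581 and lower counts from 1801 to 3752. Of the genes of the 6 lists, 5 rose and 5 fell. The count higher was 3 without a filter, 11 with array weights, 2 with the suffix _at alone, 8 with the mean of all probe sets, and 3 to 7 with 1 array left out, and the count lower was 10 with array weights. Of the 43 probe sets refitted with the replicate block (members, and list genes with a call), it ended the calls of CD44 1565868_at, HMMR 209709_s_at, TLR4 224341_x_at, MSN, BARD1 227545_at and C1QBP 214214_s_at. The cause of these shifts was not tested. Values under the detection level limit HAS2, HAS3, CEMIP and HYAL3.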
